A study of Mus musculus with 9 samples.

Results

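Neuronal cytoskeleton genes were followed through 3 states of cultured mouse epiblast-like cells. The set holds 10 genes, Nefl, Nefm, Tubb3, Map2, Mapt, Dcx, Gap43, Stmn2, Stmn3 and Stmn4, out of 23453 gene symbols in the deposited count table. They were picked by name because earlier results of the same libraries had shown that some were higher in pEpiLCs and others higher in aEpiLCs. The values that chose them are therefore these expression differences, which are given below as a description with no p-value. Where members within the limits of a call are counted, the count describes this choice and is not a test of it. EpiLCs, aEpiLCs and pEpiLCs were each represented by 3 bulk RNA-seq libraries, 9 in all. EpiLCs were grown for 48 h from naive embryonic stem cells (ESCs) in N2B27 medium with 1% knockout serum replacement (KSR), Activin A and Fgf2, and model the early post-implantation epiblast. For the other states, EpiLCs were cultured for a further 24 h. No library of EpiLCs kept in their own medium for these 24 h is among the 9. Time and medium therefore cannot be told apart in the comparisons with EpiLCs. The aEpiLC medium was N2B27, which the study's methods give with 1% KSR, without added Activin A or CHIR99021. The pEpiLC medium was N2B27 with 1% KSR, 20 ng/ml Activin A and 3 µM CHIR99021, an inhibitor of GSK3 that activates Wnt signalling. The study describes the cells as wild type, and the sources used here name no cell line for these libraries. The labels give the tissue as embryo, although the cells were cultures derived from ESCs, and they do not say whether replicates were separate cultures. The p-values therefore measure the spread between these libraries, which may be technical.

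The cytoskeleton of a neuron is built from microtubules and neurofilaments. Microtubules are polymers of alpha- and beta-tubulin, stabilised and bundled by proteins such as MAP2, tau and doublecortin and destabilised by stathmins, which bind free tubulin. Neurofilaments are intermediate filaments that set the calibre of axons, and GAP43 lies under the membrane of growth cones. Several of these proteins serve as markers of young neurons in sections and cultures.

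Library totals lay between 20560583 and 23417935 expected counts. Levels are given as CPM, counts scaled to library size after TMM normalisation, on which 3 counts corresponded to 0.130 to 0.143 CPM. pEpiLC replicate 1 stood apart from its group: 323 and 333 of 15797 genes differed by over 4-fold between it and pEpiLC replicates 2 and 3, compared with 57 to 76 genes for every other pair within a state. The log2 fold changes of the set in pEpiLCs are therefore also given without that library, as are some family shares and other genes. Of a list of 8 epiblast markers, Pou5f1, Fgf5 and Dnmt3b are given first. Pou5f1, the pluripotency factor Oct4, had 1129 ± 10.5 CPM in EpiLCs, 935 ± 48.2 CPM in aEpiLCs and 955 ± 146 CPM in pEpiLCs, and Fgf5, a growth factor of the post-implantation epiblast, had 85.4 ± 7.01, 115 ± 10.2 and 168 ± 9.71 CPM (SD, n = 3). Dnmt3b, a de novo DNA methyltransferase, had 2700 ± 155 CPM in EpiLCs and 2517 ± 138 CPM in aEpiLCs, and 745, 1596 and 1394 CPM in pEpiLC replicates 1, 2 and 3. The rest of the list did not move together. On average, Utf1 had 469, 317.5 and 76.2 CPM in EpiLCs, aEpiLCs and pEpiLCs. Pou3f1 had 205, 203 and 32.2 CPM, and Sall2 had 180.5, 242 and 78.3 CPM. Otx2 had 94.9, 143.5 and 69.9 CPM, and Tdgf1 had 197, 12.2 and 360 CPM. T, the brachyury factor of the primitive streak, had 0.302 ± 0.262 CPM in EpiLCs, 0.892 ± 0.313 CPM in aEpiLCs and 1089, 204 and 220 CPM in pEpiLC replicates 1, 2 and 3. In bulk RNA, fewer cells of one type and less RNA per cell cannot be told apart.

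Tubb3 and Stmn4 were higher in aEpiLCs and lower in pEpiLCs than in EpiLCs, and Nefl went the other way on both sides. Dcx and Nefm were higher than in EpiLCs in both later states, and more so in pEpiLCs. Map2, Gap43, Stmn2 and Stmn3 were highest in aEpiLCs, with pEpiLC levels between those of EpiLCs and aEpiLCs on average. Mapt was barely detected in any state.

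**Figure D1:**
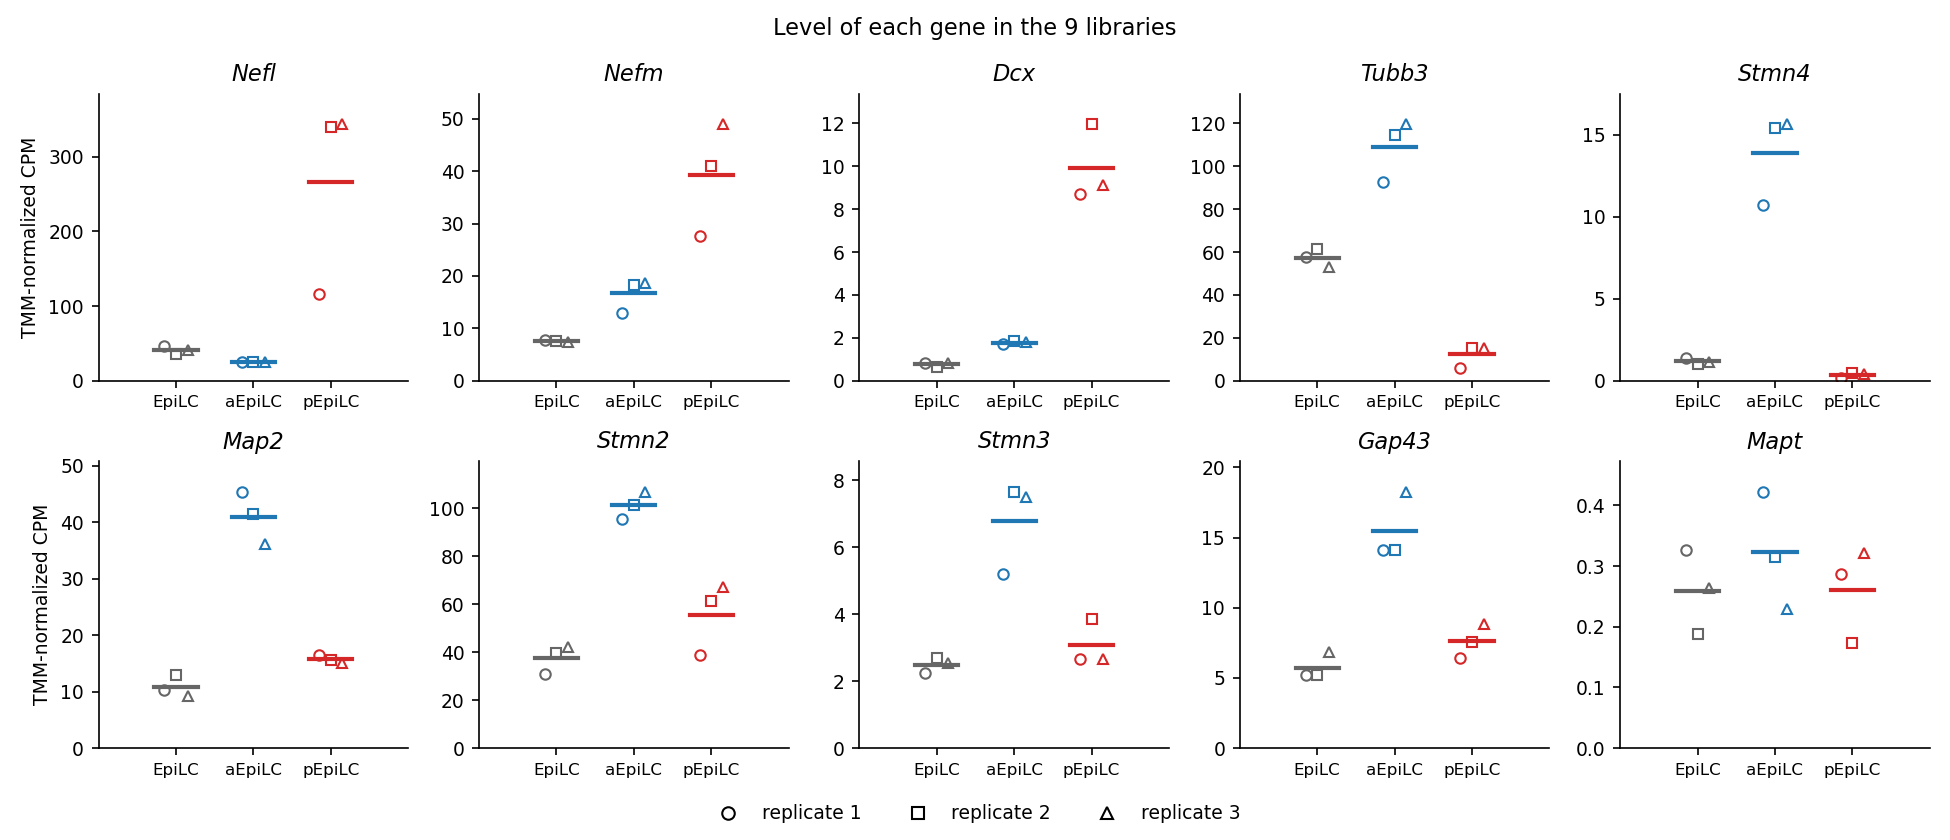
TMM-normalized CPM of each of the 10 genes (vertical axis, one scale per gene, starting at 0) in the 9 libraries, grouped by state on the horizontal axis. Circles, squares and triangles are replicates 1, 2 and 3 and the bar is the mean of 3 libraries; Nefl and Dcx peak in pEpiLCs, Tubb3 and Stmn4 in aEpiLCs, and every Mapt library stays below 0.5 CPM.

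Among the intermediate filament genes, Nefl encodes the light neurofilament subunit, on which the other neurofilament chains assemble (chr14:68083863-68089095, plus strand, GRCm38). It had 45.8, 35.3 and 40.8 CPM in EpiLC replicates 1, 2 and 3, 25.1, 25.4 and 24.5 CPM in aEpiLCs, and 115.5, 339.6 and 343.6 CPM in pEpiLCs. All aEpiLC libraries were below all EpiLC libraries, and all pEpiLC libraries were above both, with replicate 1 the lowest of its group. The log2 fold change from EpiLCs was -0.70 (standard error 0.0937) in aEpiLCs and 2.73 (standard error 0.387) in pEpiLCs. Between the later states it was 3.41 (standard error 0.391) towards pEpiLCs, a 10.6-fold difference. Without pEpiLC replicate 1 the pEpiLC values were 3.10 against EpiLCs and 3.78 against aEpiLCs.

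Nefm encodes the medium neurofilament subunit (chr14:68082590-68124846, minus strand). Its levels were 7.80, 7.55 and 7.39 CPM in EpiLCs, 12.9, 18.4 and 18.7 CPM in aEpiLCs and 27.7, 41.0 and 49.0 CPM in pEpiLCs. The 3 groups did not overlap and stood in the order EpiLC, aEpiLC, pEpiLC, so that Nefm was raised in aEpiLCs, where Nefl was reduced. Its log2 fold change was 1.14 (standard error 0.146) in aEpiLCs and 2.40 (standard error 0.204) in pEpiLCs relative to EpiLCs. The pEpiLC value was 2.60 without replicate 1. Between pEpiLCs and aEpiLCs the difference was 1.24 (standard error 0.227), and 1.44 without pEpiLC replicate 1. Over 13 alternative fits the lowest value was 1.04.

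Nefl and Nefm are neighbours on opposite strands, and the annotation places their exons on top of each other. The long Nefm transcript Nefm-202 shares 1108 exonic bases with Nefl (chr14:68083863-68084970), 32.8% of the Nefl transcript and 30.1% of Nefm-202. Within it, 144 bases at chr14:68084827-68084970 are coding in both annotated transcripts. They are shown on the Nefl strand, all in lower case since no motif is marked, because a read from this stretch can be given to either gene:
Nefl and Nefm shared coding stretch: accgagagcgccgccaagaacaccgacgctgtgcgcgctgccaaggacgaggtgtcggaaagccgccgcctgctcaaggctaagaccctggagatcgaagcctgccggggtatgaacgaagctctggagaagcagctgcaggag

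The deposited counts of this pair were linked. Expected counts of Nefl were not whole numbers in 7 of 9 libraries, whereas the sum of Nefl and Nefm was whole in 9 of 9, within 0.015 counts. Nefm had 17.0 to 21.4 counts per 100 counts of Nefl in EpiLCs and 51.5 to 76.3 in aEpiLCs. In pEpiLCs the ratio was 24.0, 12.1 and 14.3 in replicates 1, 2 and 3. In aEpiLCs the Nefl count was 532.5 to 564.3 and the Nefm count 275.0 to 407.7. Whether the libraries kept the strand of the RNA is not given in the sources used here, so the split of counts between these neighbours is uncertain, and how much of the Nefm level came from Nefl reads was not tested.

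**Figure D2:**
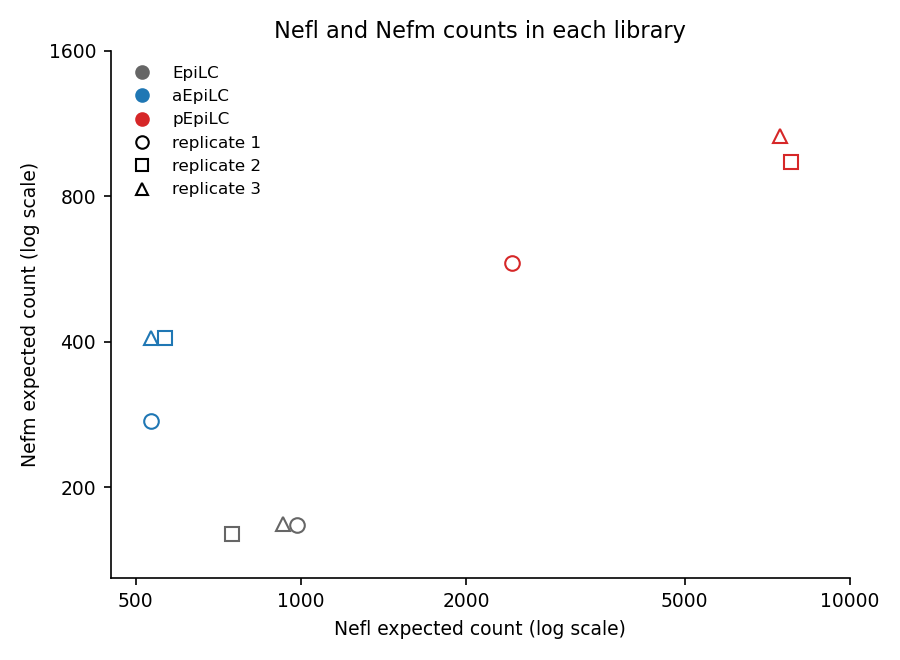
Expected count of Nefm (vertical axis, log scale) against that of Nefl (horizontal axis, log scale) in each of the 9 libraries, with colour for the state and symbol for the replicate number. EpiLC libraries lie at the bottom with 160.3 to 168.3 Nefm counts, aEpiLC libraries at the left with 532.5 to 564.3 Nefl counts, and pEpiLC libraries at the upper right, where replicate 1 is the lowest on both axes.

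Tubb3 encodes class III beta-tubulin, the isotype used to identify neurons (chr8:123411424-123422015, plus strand). It had 57.7, 61.3 and 52.9 CPM in EpiLCs, 92.6, 114.6 and 119.6 CPM in aEpiLCs, and 6.11, 15.4 and 15.3 CPM in pEpiLCs. No libraries of different states overlapped, and the lowest of all was pEpiLC replicate 1. The log2 fold change from EpiLCs was 0.93 (standard error 0.0919) in aEpiLCs and -2.20 (standard error 0.305) in pEpiLCs. Relative to aEpiLCs, the pEpiLC level was 8.84-fold lower. Without pEpiLC replicate 1 the log2 fold changes in pEpiLCs were -1.87 against EpiLCs and -2.82 against aEpiLCs.

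Per kilobase of exon, Tubb3 supplied 2.35% ± 0.174 of the summed level of 7 beta-tubulin genes in EpiLCs, 4.18% ± 0.483 in aEpiLCs and 0.527% ± 0.223 in pEpiLCs, or 0.656% without pEpiLC replicate 1 (SD, n = 3). Tubb5, the main beta-tubulin of dividing cells, supplied 60.2%, 56.5% and 62.9% in the same order, and the summed level of the family stayed between 1210 and 1410 CPM per kilobase in all 9 libraries. Of 14 other tubulin genes tested, 1 was called higher (Tubb4a) and 1 lower (the gamma-tubulin Tubg2) in aEpiLCs than in EpiLCs, 7.14% each against 7.25% and 5.24% of all genes. In pEpiLCs 1 was lower than in EpiLCs (Tubg2, 7.14% against 8.13%) and 2 were lower than in aEpiLCs (14.3%, against 4.74%). Both of the latter calls, Tubb4a and Tubg2, were lost without any one aEpiLC replicate, with adjusted p of 0.0972 to 0.140 for Tubg2. Tubb4a had its states in the same order as Tubb3, with 26.3 to 31.2 CPM in EpiLCs, 64.0 to 71.8 CPM in aEpiLCs and 5.54, 23.5 and 23.2 CPM in pEpiLC replicates 1, 2 and 3, without overlap. It rose in aEpiLCs relative to EpiLCs, by 1.19 on the log2 scale (standard error 0.0816, adjusted p = 1.24e-07, edgeR's quasi-likelihood test). From EpiLCs to pEpiLCs its log2 fold change was -0.73 and did not pass the test (standard error 0.445, adjusted p = 0.217). Tubb4a was also lower in pEpiLCs than in aEpiLCs (log2 fold change -1.94, standard error 0.442, adjusted p = 0.0256), a call that was lost without any one of the 3 aEpiLC replicates (adjusted p 0.0815 to 0.0946). It was -1.51 without pEpiLC replicate 1.

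Map2 encodes the microtubule-associated protein of dendrites (chr1:66175273-66442583, plus strand). EpiLC replicates had 10.3, 12.9 and 9.32 CPM, aEpiLC replicates 45.4, 41.5 and 36.1 CPM, and pEpiLC replicates 16.5, 15.6 and 15.1 CPM. The 3 groups did not overlap, and Map2 was the only one of the 9 tested genes whose pEpiLC replicate 1 was not below the mean of replicates 2 and 3. The log2 fold change from EpiLCs was 1.92 (standard error 0.123) in aEpiLCs, a 3.79-fold difference, and 0.56 (standard error 0.144) in pEpiLCs, or 0.53 without pEpiLC replicate 1. From aEpiLCs to pEpiLCs it was -1.38 (standard error 0.111), and -1.41 without pEpiLC replicate 1. Map4, a relative of Map2 and Mapt found in many tissues, supplied 94.9% of the summed level per kilobase of the 3 genes in EpiLCs, 80.3% in aEpiLCs and 91.4% in pEpiLCs. The share of Map2 was 4.80% ± 0.943, 19.4% ± 1.14 and 8.34% ± 0.582 (SD, n = 3).

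Mapt encodes tau, the axonal counterpart of Map2 (chr11:104231390-104332090, plus strand). It had 4 to 9 counts in every library, or 0.174 to 0.423 CPM, little above the 3 counts taken as the detection limit. The groups overlapped, and Mapt was not tested because it failed the filter on low counts in every comparison. No difference in Mapt was detected, and its low counts limit this comparison.

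Dcx encodes doublecortin, a microtubule-bundling protein of migrating neuroblasts (chrX:143855842-143933311, minus strand). The levels were 0.840, 0.661 and 0.836 CPM in EpiLCs, 1.69, 1.85 and 1.80 CPM in aEpiLCs and 8.69, 12.0 and 9.11 CPM in pEpiLCs. Every pEpiLC library was above every aEpiLC library and every aEpiLC library above every EpiLC library. The log2 fold change from EpiLCs was 3.68 (standard error 0.218) in pEpiLCs, a 12.8-fold difference, or 3.77 without pEpiLC replicate 1. In aEpiLCs it was 1.19 (standard error 0.287). From aEpiLCs to pEpiLCs it was 2.48 (standard error 0.189), and 2.57 without pEpiLC replicate 1.

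Dcx shares its tubulin-binding domain with the doublecortin-like kinases. Of the summed level per kilobase of Dcx, Dclk1, Dclk2 and Dclk3, Dcx supplied 0.869% ± 0.137 in EpiLCs, 2.47% ± 0.326 in aEpiLCs and 17.0% ± 3.54 in pEpiLCs (SD, n = 3). Dclk2 supplied 87.7%, 74.9% and 38.9%. Without pEpiLC replicate 1 the pEpiLC shares were 15.2% for Dcx and 48.6% for Dclk2. Dclk1 rose from 8.52 ± 0.772 CPM in EpiLCs to 28.5 ± 1.84 CPM in pEpiLCs, which is 1.76 on the log2 scale (standard error 0.111, adjusted p = 6.94e-05), or 1.77 without pEpiLC replicate 1. Dclk2 fell by 1.63 on the log2 scale in the same comparison (standard error 0.436, adjusted p = 0.0194), and this call was lost without any one of the 3 EpiLC replicates (adjusted p 0.0564 to 0.0660). Its log2 fold change was -1.20 without pEpiLC replicate 1.

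The stathmins bind tubulin dimers and favour the shortening of microtubules. Stmn2, also known as SCG10, is a protein of growth cones (chr3:8509360-8561606, plus strand). It had 31.0, 39.5 and 42.2 CPM in EpiLCs, 95.6, 101.3 and 106.8 CPM in aEpiLCs, and 38.7, 61.1 and 67.2 CPM in pEpiLCs. The aEpiLC libraries were above all others, while pEpiLC replicate 1 fell within the EpiLC range. The log2 fold change was 1.43 (standard error 0.097) in aEpiLCs and 0.59 (standard error 0.207) in pEpiLCs relative to EpiLCs, the latter 0.80 without pEpiLC replicate 1. Between pEpiLCs and aEpiLCs it was -0.86 (standard error 0.183), and -0.65 without pEpiLC replicate 1.

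Stmn3, a further neuronal stathmin (chr2:181306459-181314500, minus strand), was less abundant. Its levels were 2.24, 2.69 and 2.55 CPM in EpiLCs, 5.21, 7.66 and 7.50 CPM in aEpiLCs, and 2.67, 3.87 and 2.67 CPM in pEpiLCs. As for Stmn2, only the aEpiLC libraries stood clear of the other groups. The log2 fold changes from EpiLCs were 1.45 (standard error 0.195) in aEpiLCs and 0.32 (standard error 0.228) in pEpiLCs, or 0.42 without pEpiLC replicate 1. From aEpiLCs to pEpiLCs the value was -1.14 (standard error 0.235), and -1.05 without pEpiLC replicate 1.

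Stmn4 encodes a neural stathmin also called RB3 (chr14:66344296-66361680, plus strand) and showed the widest range of the set on the log2 scale. It had 1.35, 1.04 and 1.14 CPM in EpiLCs, 10.7, 15.4 and 15.7 CPM in aEpiLCs, and 0.191, 0.478 and 0.414 CPM in pEpiLCs. The pEpiLC values stood on 4, 11 and 9 counts, and none of the 3 groups overlapped. The log2 fold change from EpiLCs was 3.56 (standard error 0.203) in aEpiLCs, an 11.8-fold difference, and -1.66 (standard error 0.378) in pEpiLCs, or -1.36 without pEpiLC replicate 1. Between pEpiLCs and aEpiLCs it was -5.23 (standard error 0.311), and -4.94 without pEpiLC replicate 1. Requiring 10 counts or more per library removed Stmn4 from both comparisons with pEpiLCs.

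Stmn1, the stathmin of dividing cells, outweighed these neuronal paralogues in every state. Per kilobase, Stmn1 supplied 93.0% ± 0.721 of the summed stathmin level in EpiLCs, 82.1% ± 1.97 in aEpiLCs and 86.2% ± 2.76 in pEpiLCs (SD, n = 3). The share of Stmn4 was 0.456% ± 0.0876, 4.16% ± 0.823 and 0.201% ± 0.0745 in the same order. Stmn2 supplied 4.92% ± 0.684 in EpiLCs, 10.3% ± 0.456 in aEpiLCs and 10.7% ± 2.71 in pEpiLCs, or 12.1% without pEpiLC replicate 1. Its share over the 3 libraries in the later states differed by less than the spread between replicates although its level did not overlap, the summed stathmin level being 175 CPM per kilobase in aEpiLCs and 92.4 in pEpiLCs.

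**Figure D3:**
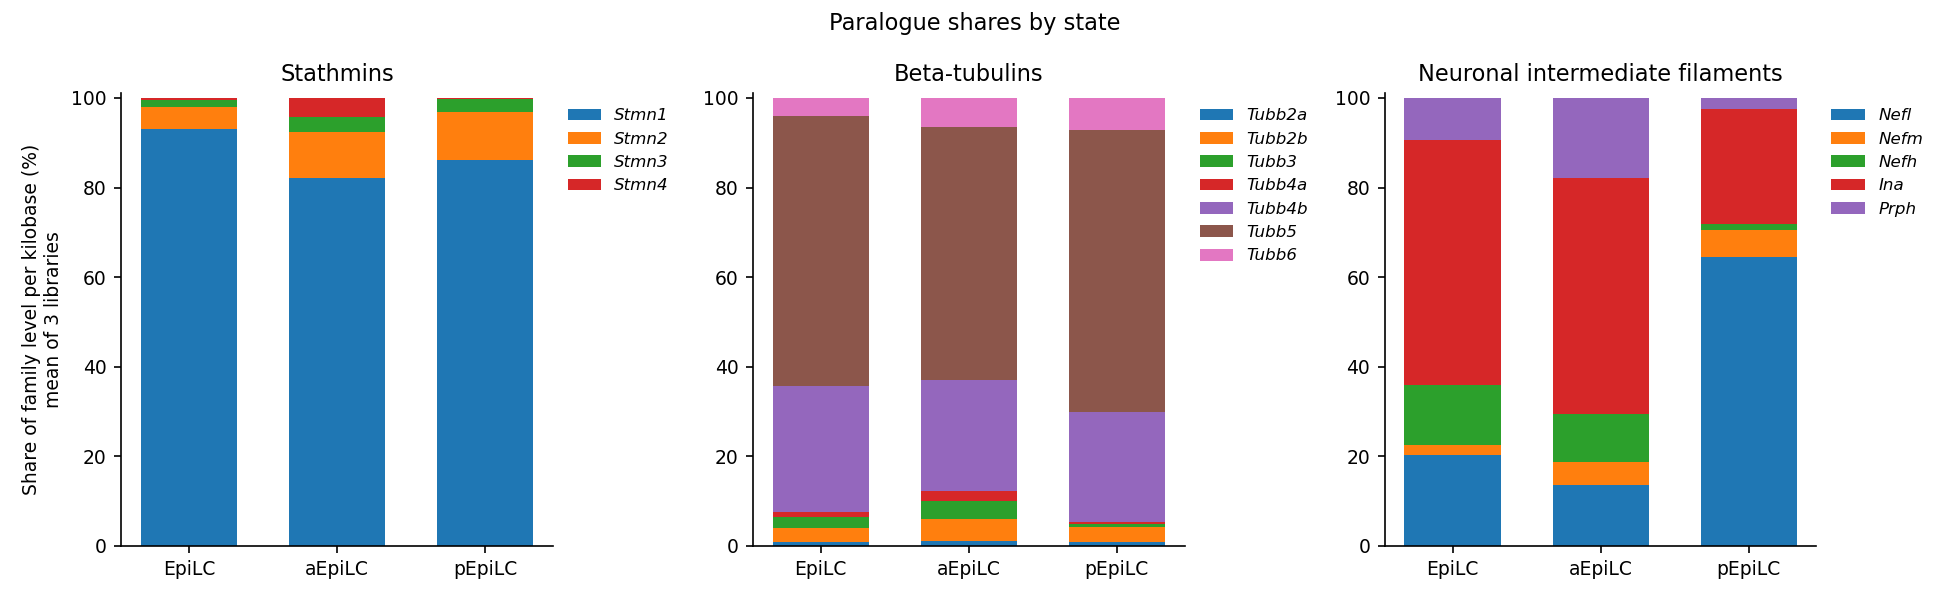
Share of each paralogue in the summed level per kilobase of its family (vertical axis, percent, mean of 3 libraries) in EpiLCs, aEpiLCs and pEpiLCs for stathmins, beta-tubulins and neuronal intermediate filaments. Stmn1 and Tubb5 hold the largest share of their families in all 3 states, while Nefl goes from 20.3% in EpiLCs and 13.5% in aEpiLCs to 64.5% in pEpiLCs, where Ina holds 25.6%. These pEpiLC shares are 72.8% for Nefl and 17.5% for Ina without pEpiLC replicate 1. Exons of Ina share 456 bases with Nt5c2 on the opposite strand, so its share is uncertain.

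Gap43 encodes the growth-associated protein of growth cones (chr16:42248442-42340651, minus strand). It had 5.18, 5.24 and 6.82 CPM in EpiLCs, 14.1, 14.1 and 18.3 CPM in aEpiLCs, and 6.40, 7.57 and 8.88 CPM in pEpiLCs. The aEpiLC libraries were above all others and the pEpiLC and EpiLC libraries overlapped. The log2 fold changes from EpiLCs were 1.43 (standard error 0.153) in aEpiLCs and 0.43 (standard error 0.188) in pEpiLCs, or 0.54 without pEpiLC replicate 1. From aEpiLCs to pEpiLCs the value was -1.02 (standard error 0.172), and -0.91 without pEpiLC replicate 1.

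**Figure D4:**
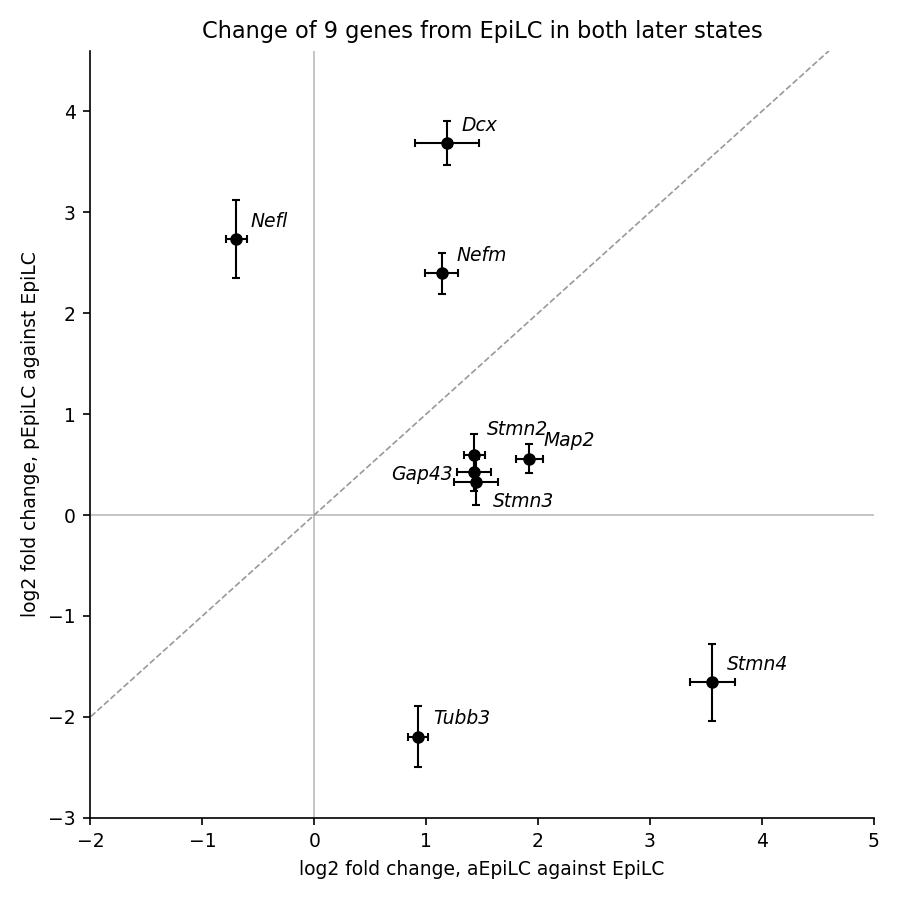
Log2 fold change from EpiLCs in aEpiLCs (horizontal axis) and in pEpiLCs (vertical axis) for the 9 tested genes, with bars of 1 standard error; both axes share the EpiLC libraries and the dashed line marks equal change. Stmn4 and Tubb3 lie at the lower right, Nefl at the upper left, Dcx and Nefm above the line, and Map2, Stmn2, Gap43 and Stmn3 in a cluster below it.

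A gene was called when edgeR's quasi-likelihood test gave a Benjamini-Hochberg adjusted p below 0.05 and the log2 fold change was at least 1 in size. In aEpiLCs against EpiLCs, 7 of 9 tested genes were within these limits as higher, against a background of 7.25% called higher and 5.24% called lower among 15301 genes. Tubb3, which was higher, and Nefl, the 1 gene that was lower, fell short of the limit on fold change. EpiLC and aEpiLC libraries were fully separated for 9 of the 9, and for 56.3% of all genes tested. The median log2 fold change was 1.43 for the 9 genes and 0.002 for all genes.

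In pEpiLCs against EpiLCs, 3 of 9 genes were within the limits as higher in pEpiLCs (Nefl, Nefm and Dcx) and 2 as lower (Tubb3 and Stmn4). The background among 15288 genes was 7.71% called higher and 8.13% called lower. The libraries did not overlap for 6 of 9 genes and for 58.7% of all genes, and the medians were 0.56 and 0.017. With at least 10 counts required in every library, 1 gene rather than 2 was counted as lower, since Stmn4 was then not tested.

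In pEpiLCs against aEpiLCs, 3 of 9 genes were within the limits as higher in pEpiLCs (Nefl, Nefm and Dcx) and 5 as lower (Tubb3, Map2, Gap43, Stmn3 and Stmn4). The background among 15198 genes was 2.55% called higher and 4.74% called lower. The libraries did not overlap for 9 of 9 genes and for 38.7% of all genes, with medians of -1.02 and 0.012. Without aEpiLC replicate 3, 3 genes rather than 5 were within the limits as lower, Gap43 and Stmn3 being lost. Gap43 was also lost without pEpiLC replicate 1, Stmn3 without aEpiLC replicate 2 or pEpiLC replicate 3, and Nefm without aEpiLC replicate 1 or 2. The 3 comparisons share libraries, so their values are set side by side and not counted as separate evidence.

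The levels of the 10 genes were ranked per kilobase of exon. In EpiLCs the order was Tubb3 with 30.7, Nefl with 12.0, Stmn2 with 6.70, Gap43 with 3.77, Stmn3 with 2.20 and Nefm with 1.31 CPM per kilobase, followed by Map2 with 0.659, Stmn4 with 0.615, Dcx with 0.0616 and Mapt with 0.0345. Of these neighbours, Map2 and Stmn4 were the pair whose libraries overlapped. In aEpiLCs Tubb3 led with 58.3 ± 7.70 CPM per kilobase, ahead of Stmn2 with 18.1 ± 0.995, Gap43 with 10.2 ± 1.59 and Nefl with 7.40 ± 0.130 (SD, n = 3). Nefl and Stmn4 overlapped there, as did Stmn4 and Stmn3, and Nefm and Map2. In pEpiLCs Nefl led with 78.8 ± 38.6 CPM per kilobase, replicate 1 having 34.2 and the others 100.5 and 101.6, and Stmn2 followed with 9.94 ± 2.68 (SD, n = 3), overlapping Nefm with 6.79 ± 1.86. Tubb3 came behind Nefm with 6.58 ± 2.87, overlapping both Nefm above it and Gap43 below it, and Dcx with 0.784 ± 0.141 overlapped Map2 with 0.956 ± 0.0413. The values depend on the length used. On the longest annotated transcript, Map2 had 1.73 rather than 0.659 and Stmn2 11.0 rather than 6.70 CPM per kilobase in EpiLCs.

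Promoter sequence was matched by symbol for 4 of the 10 genes, Tubb3, Map2, Dcx and Stmn3, in the RefSeq promoter table for GRCm38.p6. They are shown as the members with an entry, Dcx with its highest levels in pEpiLCs and the other 3 with theirs in aEpiLCs. Each stretch is given 5′ to 3′ on the strand of the gene and ends at the base before the first annotated exon. Capitals mark matches, on either strand, to the letters searched, which were GGGCGG (GC box), CANNTG (E-box), CTTTGA (core of TCF/LEF sites), AGGTGT (core of T-box sites) and TTCAGCACC (left part of the RE1 element).
Tubb3, chr8:123411303-123411423, plus strand: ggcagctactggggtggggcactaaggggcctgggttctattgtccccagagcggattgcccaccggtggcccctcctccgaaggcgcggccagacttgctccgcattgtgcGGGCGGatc
Map2, chr1:66175079-66175272, plus strand: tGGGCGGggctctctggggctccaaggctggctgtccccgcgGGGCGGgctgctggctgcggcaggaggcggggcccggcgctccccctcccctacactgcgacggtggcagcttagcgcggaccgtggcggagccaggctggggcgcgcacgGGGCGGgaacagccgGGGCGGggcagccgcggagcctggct
Dcx, chrX:143933312-143933469, minus strand: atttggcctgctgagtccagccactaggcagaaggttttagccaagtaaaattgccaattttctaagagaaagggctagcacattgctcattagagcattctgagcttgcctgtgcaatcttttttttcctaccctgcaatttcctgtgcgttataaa
Stmn3, chr2:181314501-181314750, minus strand: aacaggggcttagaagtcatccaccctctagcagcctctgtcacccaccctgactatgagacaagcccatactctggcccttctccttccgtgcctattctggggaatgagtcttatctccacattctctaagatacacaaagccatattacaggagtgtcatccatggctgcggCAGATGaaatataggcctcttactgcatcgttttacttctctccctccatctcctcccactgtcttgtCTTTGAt

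Base composition varied among these promoters. In the 250 bases before the RefSeq start, G and C made up 81.2% for Map2 and 68.0% for Tubb3, and 99.3% and 88.4% of 32851 mouse promoters were at or below these values. The share was 41.6% for Dcx and 48.8% for Stmn3, below the median of 52.4%. Within these 250 bases, which reach past the printed stretches of Map2 and Tubb3, the GC box was found 5 times in Map2 and 2 times in Tubb3, of which 4 and 1 lie in the printed stretches. It is present in 32.7% of promoters of this length. Stmn3 held 1 E-box and 1 TCF/LEF core, which occur in 66.2% and 13.8% of promoters. Neither the T-box core, found in 11.8%, nor the RE1 part, found in 0.301%, had a match in these 4 windows.

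The same comparisons were made for 5 lists of other cytoskeletal genes, which held 89 genes, 88 of them in the table. In aEpiLCs against EpiLCs, 11 of 86 tested genes passed as higher (12.8%) and 1 as lower (1.16%), against 7.25% and 5.24% of all genes. For pEpiLCs against EpiLCs, 7 of 86 were higher (8.14%) and 9 lower (10.5%), against 7.71% and 8.13%. In pEpiLCs against aEpiLCs, 1 of 85 was higher (1.18%) and 12 were lower (14.1%), against 2.55% and 4.74%. The latter count was 7 lower without aEpiLC replicate 3 and 8 without aEpiLC replicate 1 or 2. The median log2 fold changes of these genes were 0.23, -0.02 and -0.25 in the 3 comparisons.

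Among other intermediate filament genes, 2 of 13 were called higher in aEpiLCs than in EpiLCs (15.4%, against 7.25% of all genes). Krt8, a keratin of simple epithelia, rose by 2.22 (standard error 0.096, adjusted p = 3.01e-09), and Nes, the nestin of neural progenitors, rose from 98.2 ± 14.9 to 311 ± 22.1 CPM (SD, n = 3; adjusted p = 2.39e-08). In pEpiLCs 2 of 13 were lower than in EpiLCs (15.4%, against 8.13%), Nefh and Lmna. Nefh, the heavy neurofilament subunit, had 32.0, 27.9 and 34.1 CPM in EpiLCs, 24.5, 19.6 and 27.1 CPM in aEpiLCs and 3.72, 7.48 and 8.83 CPM in pEpiLCs. It was lowest in the state where Nefl and Nefm were highest. Nefh fell by 2.21 on the log2 scale from EpiLCs (standard error 0.277, adjusted p = 0.000941). Leaving out pEpiLC replicate 1 gave -1.92. Against aEpiLCs, 4 of 13 genes were lower in pEpiLCs (30.8%, against 4.74%), and among them were Nefh (log2 fold change -1.83, adjusted p = 0.00731) and Prph, the filament of peripheral neurons (-1.75, adjusted p = 0.0127). The Prph call was lost without aEpiLC replicate 1 or 3 (adjusted p 0.0513 and 0.0606), and that of Krt18, a keratin of simple epithelia, without aEpiLC replicate 2 or 3 (adjusted p 0.0601 and 0.0573), so that 2 of these 4 calls were lost without aEpiLC replicate 3. Without pEpiLC replicate 1 the log2 fold changes were -1.53 for Nefh and -1.47 for Prph.

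Among other tubulin-binding proteins, 4 of 28 were called higher in aEpiLCs than in EpiLCs (14.3%, against 7.25% of all genes). They included the collapsin response mediators Dpysl3, Dpysl2 and Dpysl4, with log2 fold changes of 1.58, 1.27 and 1.21 (adjusted p = 1.85e-08, 9.57e-07 and 0.00487). In pEpiLCs against EpiLCs, 2 were higher (7.14%, against 7.71%) and 5 lower (17.9%, against 8.13%). Of the higher genes, Dpysl3 was lost without any one EpiLC replicate (adjusted p 0.0734 to 0.094) or without pEpiLC replicate 1 (log2 fold change 0.63). Of the lower genes, Map1a was lost without pEpiLC replicate 1 (log2 fold change -0.96) and Dclk2 without any one EpiLC replicate. In pEpiLCs against aEpiLCs 4 of 27 were lower (14.8%, against 4.74%). Map6, which protects microtubules from cold, fell from 17.7 ± 1.06 CPM in EpiLCs and 24.3 ± 0.718 CPM in aEpiLCs to 3.91 ± 1.79 CPM in pEpiLCs (SD, n = 3; adjusted p = 0.00172 and 0.00197). Map1a and Map1b, large proteins of dendrites and axons, were lower in pEpiLCs than in aEpiLCs by log2 fold changes of -1.32 and -1.25 (adjusted p = 0.00654 and 0.00363). Without pEpiLC replicate 1 the values were -1.10 and -1.09, and those of Map6 were -1.83 against EpiLCs and -2.31 against aEpiLCs. Exons of Map1a share 272 bases with Ppip5k1 on the opposite strand.

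Of 14 growth cone genes tested, 5 were higher (35.7%, against 7.71% of all genes) and 1 lower (7.14%, against 8.13%) in pEpiLCs than in EpiLCs. The 5 include L1cam, an axonal adhesion molecule, whose call was lost without any one EpiLC replicate (adjusted p 0.0955 to 0.130) or without pEpiLC replicate 1 (log2 fold change 0.60). In aEpiLCs against EpiLCs 4 of 14 were higher (28.6%, against 7.25%), and in pEpiLCs against aEpiLCs 1 was higher and 1 lower (7.14% each, against 2.55% and 4.74%). Nrcam, an adhesion molecule of axons, had 12.4, 11.4 and 11.1 CPM in EpiLCs, 25.6, 16.4 and 15.1 CPM in aEpiLCs and 96.1, 115.8 and 119.9 CPM in pEpiLCs. This is the order of states seen for Dcx and Nefm, and the groups did not overlap. Its log2 fold change was 3.27 from EpiLCs (standard error 0.106, adjusted p = 4.64e-06) and 2.54 from aEpiLCs (standard error 0.202, adjusted p = 0.000361), or 3.37 and 2.64 without pEpiLC replicate 1. Ablim1, an actin-binding protein, had 4.01 to 5.52 CPM in EpiLCs, 9.62 to 15.6 CPM in aEpiLCs and 97.0, 19.7 and 17.7 CPM in pEpiLC replicates 1, 2 and 3. Its log2 fold change from EpiLCs to pEpiLCs was 3.21 (standard error 0.688, adjusted p = 0.00813), and 1.95 without replicate 1, where it still passed (adjusted p = 5.75e-08). Cap2, an actin regulator, rose in aEpiLCs by 1.66 (standard error 0.136, adjusted p = 5.90e-07). Of 17 motor and severing genes, 1 was called in any of the 3 comparisons, Kif5c, a neuronal kinesin, which was lower in pEpiLCs than in aEpiLCs (log2 fold change -1.43, adjusted p = 0.0130). This is 5.88% of the list, near the 4.74% of all genes called lower there. The Kif5c call was lost without any one of the 3 aEpiLC replicates (adjusted p 0.0534 to 0.0622), and its value was -1.13 without pEpiLC replicate 1.

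**Figure D5:**
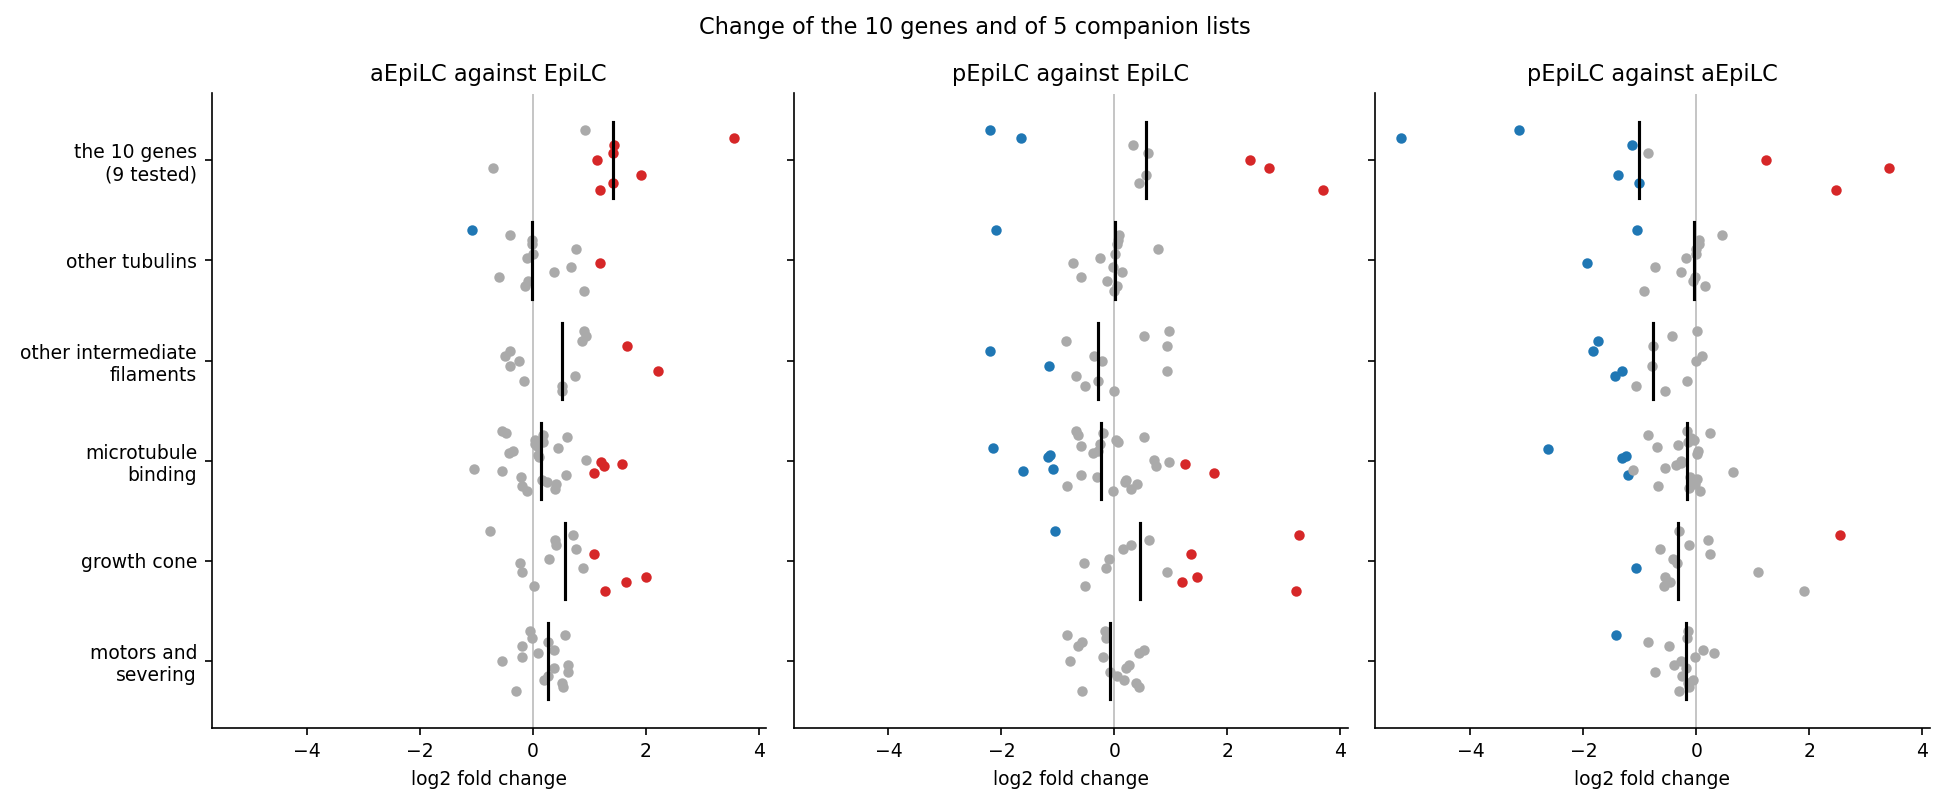
Log2 fold change (horizontal axis) of each tested gene in the 10-gene set and in 5 lists of other cytoskeletal genes (rows) for the 3 comparisons (panels); red points are called higher, blue points called lower, grey points neither, and the black bar is the median of the row. In the right panel, pEpiLCs against aEpiLCs, 12 companion genes are blue and 1 is red.

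Markers of neurons outside the cytoskeleton were summed over 16 genes, among them Elavl2, Elavl3, Syt1 and Neurod1. The sum was 69.4 to 75.7 CPM in EpiLCs, 91.9 to 95.9 CPM in aEpiLCs and 43.2 to 51.3 CPM in pEpiLCs. This is the order seen for Tubb3 and the reverse of that for Nefl. In aEpiLCs against EpiLCs 1 of 10 tested was called, as higher (10%, against 7.25% of all genes). In pEpiLCs against EpiLCs 1 of 11 was higher (9.09%, against 7.71%) and 2 lower (18.2%, against 8.13%). In pEpiLCs against aEpiLCs 1 of 11 was higher (9.09%, against 2.55%) and 4 lower (36.4%, against 4.74%). Elavl3, a neuronal RNA-binding protein, had 13.9 ± 1.53, 26.7 ± 0.384 and 3.63 ± 1.46 CPM in EpiLCs, aEpiLCs and pEpiLCs (SD, n = 3). Its relative Elavl2 did not follow the summed level, with 24.7 ± 2.50, 19.9 ± 2.78 and 18.0 ± 2.14 CPM in EpiLCs, aEpiLCs and pEpiLCs (SD, n = 3), and Neurod4, a proneural factor, had 10, 4 and 3 counts in aEpiLC replicates 1, 2 and 3 and was at 0 counts in all EpiLC and pEpiLC libraries. The 9 neural progenitor markers in the table summed to 196 to 217 CPM in EpiLCs, 293 to 307 CPM in aEpiLCs and 83.0 to 128 CPM in pEpiLCs. Most of this sum came from Otx2, Sox2 and Sox3, which the epiblast also expresses. Sox1 had 1.21 ± 0.149, 0.968 ± 0.471 and 0.151 ± 0.162 CPM in EpiLCs, aEpiLCs and pEpiLCs (SD, n = 3). Pax6 did not follow Sox1 and was higher in aEpiLCs, with 0.564 ± 0.0829, 1.99 ± 0.166 and 0.0906 ± 0.0424 CPM (SD, n = 3). In aEpiLCs against EpiLCs 1 of 6 tested markers of this list was higher (16.7%, against 7.25%). In pEpiLCs 4 of 5 were lower than in EpiLCs (80%, against 8.13%) and 4 of 5 lower than in aEpiLCs (80%, against 4.74%). Their part in the levels of the 10 genes was not tested.

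Primitive streak markers, 12 genes that include T, summed to 11.7 to 15.7 CPM in EpiLCs and 10.6 to 14.8 CPM in aEpiLCs. In pEpiLC replicates 1, 2 and 3 they summed to 2908, 683 and 680 CPM. Replicate 1, with the highest sum, had the lowest Nefl, Nefm and Dcx of its group. The same held for Tubb3, Stmn4, Stmn2 and Gap43. Epiblast markers summed to 4861 to 5169, 4386 to 4584 and 2312 to 3473 CPM. Of the streak markers, 9 of 10 tested were higher in pEpiLCs than in EpiLCs (90%, against 7.71%), and of 8 epiblast markers 1 was higher and 4 lower (12.5% and 50%, against 7.71% and 8.13%). Extraembryonic endoderm markers stayed between 5.61 and 11.8 CPM in all 9 libraries. Fibroblast markers summed to 23.0 to 27.2, 34.6 to 51.1 and 18.3 to 22.4 CPM. Of 5 tested, 1 was higher and 1 lower in aEpiLCs than in EpiLCs (20% each, against 7.25% and 5.24%), Acta2, a smooth muscle actin, with 2.78 to 4.66 CPM in EpiLCs and 14.04 to 26.92 CPM in aEpiLCs, and Dcn, a matrix proteoglycan, with 4.81 to 7.26 and 1.315 to 2.116 CPM. In pEpiLCs 1 was higher and 1 lower than in EpiLCs (20% each, against 7.71% and 8.13%), and 2 were lower than in aEpiLCs (40%, against 4.74%). REST, the repressor of neuronal genes, its cofactors and neuronal splicing regulators formed a list of 15 genes, which summed to 2593 to 2674, 2505 to 2568 and 2384 to 2568 CPM. Rest itself had 265 ± 13.3 CPM in EpiLCs, 147 ± 6.52 CPM in aEpiLCs and 158 ± 15.9 CPM in pEpiLCs (SD, n = 3), with EpiLC libraries above all others. Its log2 fold change from EpiLCs was -0.85 in aEpiLCs (standard error 0.0615, adjusted p = 1.94e-07) and -0.72 in pEpiLCs (standard error 0.0815, adjusted p = 0.000634), both short of the limit on fold change. Of the list, 1 gene was called against EpiLCs in each later state, as higher (6.67%, near the 7.25% and 7.71% of all genes), Ctdspl, a phosphatase, and it and Rest are named after their values were seen. The part of these markers in the levels of the 10 genes was not tested.

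pEpiLC replicate 1 was low for most of the set, whichever way the gene went. The mean of replicates 2 and 3 was 2.96 times the level in replicate 1 for Nefl, 2.52 times for Tubb3 and 2.34 times for Stmn4. The ratio was 1.66 for Stmn2, 1.62 for Nefm, 1.29 for Gap43, 1.22 for Stmn3, 1.21 for Dcx and 0.932 for Map2. For Nefl this library lay towards the EpiLC level, and for Tubb3 and Stmn4 away from it.

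The genes whose levels were most like those of Tubb3, Dcx and Nefl were sought among 10730 genes with a mean of at least 5 CPM, by Pearson correlation of log2 CPM over the 9 libraries. These libraries form 3 groups, so a high coefficient says mainly that the states stand in the same order with like distances. For Tubb3 they were Kbtbd11 (0.996), Sall2 (0.996) and Cend1 (0.994), and Kbtbd11 had 38.2, 66.8 and 9.58 CPM on average in EpiLCs, aEpiLCs and pEpiLCs. For Dcx they were Cask (0.996), Rtl8b (0.993) and Crot (0.991), and Rtl8b had 9.14, 16.5 and 84.7 CPM. For Nefl they included Sat1 (0.977) and Cnpy1 (0.971), and Cnpy1 had 12.4, 8.94 and 41.8 CPM.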

How the data were processed

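Bulk RNA-seq of 3 EpiLC, 3 aEpiLC and 3 pEpiLC libraries was used. Per the labels, the authors aligned paired-end reads of 150 bp to GRCm38 (mm10) with STAR 2.7.9a and estimated gene counts with RSEM 1.3.1. Expected counts were deposited by gene symbol and were not normalized. Gene annotation, read cleaning and strandedness are not given in the sources used here. Expected counts were rounded, filtered with filterByExpr, TMM-normalized and tested with edgeR 4.0.16 (R 4.3.3, limma 3.58.1) quasi-likelihood tests on the 6 libraries of each comparison, without covariates, with Benjamini-Hochberg adjustment over all genes tested. Calls needed an adjusted p below 0.05 and a log2 fold change of at least 1 in size. The standard error is the fold change divided by the root of the F statistic. CPM per kilobase used GENCODE vM21 exons, in which 22803 symbols (97.2%) matched 1 gene. Scripts were tested on simulated data. The alternatives were RLE factors, DESeq2 1.42.0, the likelihood ratio test, other filters, all 9 libraries in one fit, a replicate block, no limit on fold change and leaving out each library. Family shares and levels without pEpiLC replicate 1 were added after seeing the data.

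The 10 genes and all lists were chosen with earlier results of these data known. From the companion lists, up to 3 called genes with the largest change per list, comparison and direction and a mean of at least 1 CPM were eligible to be named, and from each marker list the gene with the highest mean CPM over the 9 libraries. Other genes named were chosen after their values were seen. Depth of 20560583 to 23417935 counts per library puts 3 counts at 0.130 to 0.143 CPM. This limit covers counting error only. For Tubb3, Dcx and Nefl, the 3 genes with the most similar levels were sought, of which 1 is not reported here.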

Additional observations from a re-analysis of the deposited data

How the results depend on the processing

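The values of the 9 tested genes kept their direction in 349 of 349 refits where a value could be had. For the named companion genes, 387 refits kept the call, 42 kept the direction without it, and 0 turned. Without the limit on fold change, companion calls were 43 higher and 16 lower in aEpiLCs against EpiLCs, 21 and 29 in pEpiLCs against EpiLCs, and 2 and 25 in pEpiLCs against aEpiLCs. Nefl was then the 1 gene of the set counted as lower in aEpiLCs than in EpiLCs. The likelihood ratio test gave 2 companion genes lower in aEpiLCs than in EpiLCs. Higher in pEpiLCs than in aEpiLCs were 2 with DESeq2, 3 with the likelihood ratio test and 3 with all 9 libraries in one fit. With at least 10 counts in every library, 1 gene of the set was lower in pEpiLCs than in EpiLCs. The cause of these shifts was not tested, apart from the limit and the filter themselves.

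With each library left out in turn, companion genes lower in aEpiLCs than in EpiLCs numbered 0 to 2. In pEpiLCs against aEpiLCs, 1 to 2 companion genes were higher and 7 to 12 lower, and 3 to 5 genes of the set were lower. Calls of pEpiLCs against EpiLCs for Dpysl3, Dclk2, Map1a, L1cam and Nrgn were lost without 1 or more single libraries. So were those of L1cam and Tubg2 in aEpiLCs against EpiLCs. In pEpiLCs against aEpiLCs, Tubg2 and Dbn1 were lost in this way, and Krt18 without aEpiLC replicate 2 or 3.

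A replicate block, with the replicate number as a term, gave 2 companion genes higher and 11 lower in pEpiLCs against aEpiLCs and left the counts of the set at 3 and 5. Same-numbered libraries had correlated deviations of 0.172, 0.117 and 0.062 there, and -0.060 to 0.034 in the comparisons with EpiLCs, so the numbers were not taken to pair the libraries. In pEpiLCs against aEpiLCs every library correlated best with its own number, a hint from the data and not the design. Mapt, which failed the filter, had log2 fold changes of 0.31 in aEpiLCs against EpiLCs, 0.02 to 0.03 in pEpiLCs against EpiLCs and -0.31 to -0.30 in pEpiLCs against aEpiLCs with DESeq2 and without a filter, and was not called. Its 4 to 9 counts per library limit this comparison.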
